A study of Mus musculus with 30 samples.

Results

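The change examined was loss of the DNA-binding domain of the transcription factor Sp1 in mouse blood progenitors. Blood progenitors made from Sp1_deltaDBD embryonic stem cells (ESC) were compared with those made from WT ESC, with 2 samples of each. These 4 samples were chosen by their labels and are part of a series of 30, which covers 5 populations (ESC, Flk1+ cells, HE1, HE2 and progenitors) in 3 genotypes (WT, Sp1_deltaDBD and Sp3KO). All 14685 genes of the expression table were used. All samples come from the E14 ESC line. WT cells are labelled as wild type for both genes, Sp1_deltaDBD cells carry *Sp1* without its DNA-binding domain and can still make a truncated protein, and Sp3KO cells lack Sp3. The mutant is a single ESC line, so differences caused by the allele and differences that arose in the line cannot be told apart. In this in vitro culture, Flk1+ cells purified from embryoid bodies were placed in blast culture, and on day 2 KIT+ cells were sorted into HE1 (CD41-, Tie2+), HE2 (CD41+, Tie2+) and progenitors (CD41+, Tie2-). HE1 and HE2 are hemogenic endothelium, the endothelial cells from which the first blood cells bud. The values are FPKM (sequenced fragments scaled to transcript length and library size) of total RNA, quantile normalised by the authors over the whole series. Read counts were not used here and the depth behind each value is unknown. The study's methods call the replicates of a group biological, and the labels do not say which cultures they came from, so p-values measure the spread between these samples.

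Sp1 is a ubiquitous zinc finger factor that binds GC boxes, short GC-rich elements found in many promoters, often those of CpG islands. Sp3 and Sp4 are close relatives that recognise the same elements. Many Sp1 sites lie in promoters of genes that most cells use, and Sp1 works there beside general factors such as NF-Y.

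Of the 14525 genes above 1 FPKM in at least 1 sample, 544 (3.75%) were higher and 732 (5.04%) were lower in Sp1_deltaDBD than in WT progenitors. These are the genes with a Benjamini-Hochberg adjusted p below 0.05 by limma, a linear model fitted to log2(FPKM + 0.1) of all 30 samples. All log2 fold changes below are differences of mean log2(FPKM + 0.1), mutant minus WT, given ± the standard error of the fit, and understate the change of low genes. Of the genes called, 544 of 544 higher and 731 of 732 lower genes had both mutant samples beyond both WT samples, against 26.7% of all genes tested with both mutant samples above and 17.7% with both below. The calls were made from these same samples, so this separation is favoured by the choice and is no independent check of the calls. The lowest value of a column was 0.000598 and 0.000832 FPKM in WT and 0.00595 and 0.00816 FPKM in Sp1_deltaDBD. A gene at the lowest value in all 4 samples therefore counts as above, with a log2 fold change over 0. Such genes raise the 26.7% and enter the medians over all genes, here and below. The megakaryocyte, endothelial, cholesterol and immediate early lists held 0 of them. The median size of the change was 0.93 for genes called higher and 1.15 for genes called lower, on the log2 scale. By a second rule without a test (more than 2-fold between mean FPKM + 0.1, with a mean over 3 FPKM in the higher group), 201 genes were higher and 370 lower, and 120 and 258 of these were also called by limma. With the 4 samples fitted alone limma called 0 genes in either direction, although 803 higher and 904 lower genes had an unadjusted p below 0.05. With the 6 progenitor samples of the 3 genotypes it called 26 higher and 60 lower. The counts therefore rest on the spread between replicates measured over the whole series, and an exact permutation test of 2 samples against 2 cannot go below p = 0.333. Without WT replicate 1 limma called 280 higher and 432 lower genes, and without Sp1_deltaDBD replicate 1 it called 265 and 453. Of the 101 called genes chosen by the naming rule, 48 lost the call without WT replicate 1, 48 without Sp1_deltaDBD replicate 1, 37 without WT replicate 2 and 31 without Sp1_deltaDBD replicate 2.

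**Figure D1:**
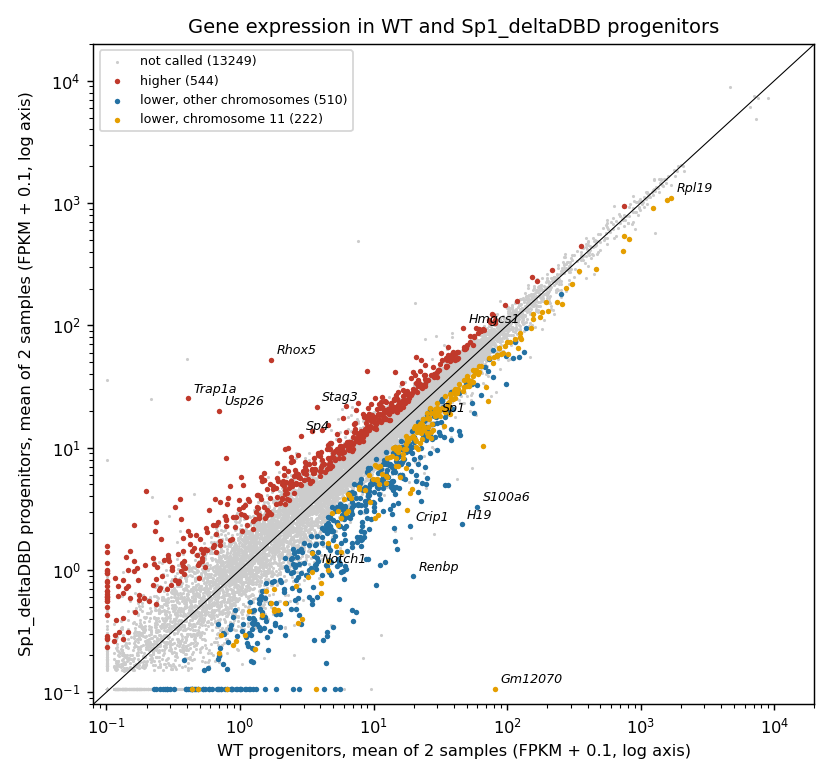
Mean FPKM + 0.1 of each gene tested in WT (x axis) and Sp1_deltaDBD progenitors (y axis), both on log axes, 2 samples a group, with the line of equal values. Coloured points are the 544 genes called higher and the 732 called lower by limma; 222 of the lower genes lie on chromosome 11 and lie under the line of equal values from low to high levels, while *Rhox5*, *Trap1a* and *Usp26* stand far above it.

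The targeted gene was examined first. *Sp1* (GRCm38, chromosome 15, 102406143 to 102436404) had 30.4 and 28.5 FPKM in WT and 14.8 and 20.5 FPKM in Sp1_deltaDBD. Both mutant samples lay under both WT samples (log2 fold change -0.76 ± 0.17, limma adjusted p = 0.00788), and the call was lost without WT replicate 1 or Sp1_deltaDBD replicate 1. A gene-level FPKM does not show whether the deleted part is transcribed, so it does not check the allele itself. *Sp3* had 58.1 and 35.3 FPKM in WT and 49.4 and 50.9 FPKM in Sp1_deltaDBD, and the groups overlapped (limma adjusted p = 0.719). In Sp3KO progenitors *Sp1* had 31.5 and 29.9 FPKM and *Sp3* had 4.81 and 4.10 FPKM. *Sp4*, a relative of *Sp1* (GRCm38, chromosome 12, 118234933 to 118301440), had 2.95 and 2.55 FPKM in WT and 12.1 and 12.7 FPKM in Sp1_deltaDBD. Both mutant samples were above both WT samples (log2 fold change 2.13 ± 0.23, limma adjusted p = 9.63e-06). It was called in 13 of 14 alternative fits, and was at 3.35 and 3.38 FPKM in Sp3KO progenitors. Of the 23 measured Sp and Klf family genes tested, *Sp4* was higher (4.35%) and *Sp1*, *Klf4* and *Klf12* were lower (13.0%), where 3.75% and 5.04% of all genes were. *Klf4*, a regulator of pluripotency and of myeloid and epithelial cells, had 1.52 and 1.65 FPKM in WT and 0.335 and 0.537 FPKM in Sp1_deltaDBD (log2 fold change -1.68 ± 0.32, limma adjusted p = 0.00239). *Klf12*, a repressor of the same family, was low in all samples, with 0.839 and 0.784 FPKM in WT and 0.231 and 0.509 FPKM in Sp1_deltaDBD. *Klf6* had the highest WT level of the family (34.3 and 65.7 FPKM in WT and 20.7 and 32.5 FPKM in Sp1_deltaDBD), with a limma adjusted p of 0.0791. The 3 lower calls became 1 without Sp1_deltaDBD replicate 1 and 5 without Sp1_deltaDBD replicate 2, and *Klf12* was lost without WT replicate 1, WT replicate 2 or Sp1_deltaDBD replicate 1.

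The identity of the sorted cells was checked with the genes of the sort. *Kit*, the stem cell factor receptor, had 35.2 and 60.7 FPKM in WT and 30.4 and 46.4 FPKM in Sp1_deltaDBD, and *Itga2b*, which encodes CD41, had 85.9 and 136 FPKM in WT and 59.1 and 119 FPKM in Sp1_deltaDBD. *Tek*, which encodes Tie2, had 8.67 and 5.95 FPKM in WT and 15.7 and 9.54 FPKM in Sp1_deltaDBD, against means of 87.7 FPKM in WT HE2 and 79.2 FPKM in Sp1_deltaDBD HE2. *Tek* was therefore low in both progenitor groups, and *Kit* and *Itga2b* were high, as the labels of the sort say. None of these genes nor *Kdr* was called by limma (adjusted p of 0.129 to 0.728). In bulk samples, fewer cells of a type and less RNA per cell cannot be told apart.

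Globin genes spread widely between replicates. *Hbb-bh1*, an embryonic beta-like globin with the highest WT level of the list, had 10322 and 2745 FPKM in WT and 7014 and 5094 FPKM in Sp1_deltaDBD. The WT samples alone spanned the mutant values, and 0 of 10 globin genes tested were called in either direction. Of 25 erythroid genes tested, 3 were higher (12%, where 3.75% of all genes were) and 0 lower. Their median log2 fold change was 0.37 beside 0.049 over all genes tested. Both mutant samples lay above both WT samples for 9 and under them for 1, where 26.7% and 17.7% of all genes did. *Hemgn*, a nuclear factor of red cell progenitors, had 10.4 and 4.79 FPKM in WT and 31.9 and 14.3 FPKM in Sp1_deltaDBD (log2 fold change 1.58 ± 0.42, limma adjusted p = 0.0224). *Epb42*, a protein of the red cell membrane skeleton, had 10.9 and 8.17 FPKM in WT and 26.2 and 19.3 FPKM in Sp1_deltaDBD (log2 fold change 1.24 ± 0.31, limma adjusted p = 0.017). *Rhag*, the Rh-associated membrane channel, had 1.43 and 1.89 FPKM in WT and 5.53 and 3.97 FPKM in Sp1_deltaDBD (log2 fold change 1.45 ± 0.43, limma adjusted p = 0.0398). The count fell to 0 without WT replicate 2 or without Sp1_deltaDBD replicate 1. The *Rhag* call held in 5 of 14 alternative fits. It was lost without any 1 of the 4 samples and when values were centred on each chromosome. *Car2*, carbonic anhydrase 2 and the most abundant of the list, had 199.998 and 199.998 FPKM in WT and 182 and 195 FPKM in Sp1_deltaDBD, with a limma adjusted p of 0.781. Of 22 haem and iron genes, 1 was lower (4.55%, where 5.04% of all genes were). It was *Hmox1*, the haem-degrading enzyme, with 10.6 and 17.03 FPKM in WT and 6.29 and 6.18 FPKM in Sp1_deltaDBD (log2 fold change -1.10 ± 0.21, limma adjusted p = 0.0027), a call lost without WT replicate 2.

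Of 29 megakaryocyte and platelet genes tested, 14 had both mutant samples above both WT samples and 3 had both below, where 26.7% and 17.7% of all genes did. By limma 1 was called higher (3.45%, where 3.75% of all genes were). It was *G6b* (Mpig6b, an inhibitory receptor of megakaryocytes), which had 2.05 and 2.01 FPKM in WT and 4.86 and 8.47 FPKM in Sp1_deltaDBD (log2 fold change 1.61 ± 0.38, limma adjusted p = 0.0107). Others of the list had higher mutant values without a call: *Gp6*, the collagen receptor of platelets, had 0.616 and 1.37 FPKM in WT and 3.45 and 3.35 FPKM in Sp1_deltaDBD (limma adjusted p = 0.0908), and *Pf4*, platelet factor 4, had 6.12 and 3.20 FPKM in WT and 18.4 and 9.06 FPKM in Sp1_deltaDBD (adjusted p = 0.248). *Thbs1*, thrombospondin 1, had lower mutant values, 92.4 and 117 FPKM in WT and 39.8 and 66.7 FPKM in Sp1_deltaDBD (adjusted p = 0.131). The more abundant *Itgb3* had a mean of 219 FPKM in WT and 134 FPKM in Sp1_deltaDBD. The summed FPKM of the list was 1300 and 1620 in WT and 1158 and 1547 in Sp1_deltaDBD, so the sums of the groups overlapped. Of the 29 genes, 4 lie on chromosome 11, *Itgb3* and *Itga2b* among them. Genes of that chromosome were lower as a whole (median log2 fold change -0.34, described below). The part this plays in the values of *Itgb3* and in the sums was not tested. Of 25 myeloid genes, 1 was lower (4%, where 5.04% of all genes were). It was *Cebpe*, a late granulocyte factor, which had 1.27 and 0.251 FPKM in WT and was listed at the lowest value of the sample in both mutant samples. Other myeloid genes overlapped or missed the threshold: *Mpo*, myeloperoxidase, had 28.7 and 66.4 FPKM in WT and 23.5 and 38.4 FPKM in Sp1_deltaDBD, and *Cyba*, a subunit of the phagocyte oxidase, had 18.2 and 30.7 FPKM in WT and 5.49 and 3.75 FPKM in Sp1_deltaDBD (limma adjusted p = 0.0594). *Cpa3*, a mast cell protease, was higher (0.332 and 1.58 FPKM in WT and 5.60 and 4.10 FPKM in Sp1_deltaDBD; log2 fold change 2.52 ± 0.51, limma adjusted p = 0.00415), but only 2 genes of the mast cell list were in the table. These single calls, and that of *Lck* below, were lost without WT replicate 1 (*G6b*, *Cebpe*, *Cpa3*, *Lck*), WT replicate 2 (*G6b*, *Lck*), Sp1_deltaDBD replicate 1 (*Cebpe*, *Lck*) or Sp1_deltaDBD replicate 2 (*G6b*, *Lck*). Among 4 lymphoid genes tested, *Lck*, a T cell kinase, was called lower from values of 0.334 FPKM and below.

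Among 21 blood transcription factors tested, 1 was higher and 1 lower (4.76% each, where 3.75% and 5.04% of all genes were). *Erg*, an ETS factor of stem cells and endothelium, had 8.94 and 13.6 FPKM in WT and 17.3 and 29.4 FPKM in Sp1_deltaDBD (log2 fold change 1.03 ± 0.32, limma adjusted p = 0.0476). *Meis1*, a Hox cofactor on chromosome 11, had 44.5 and 22.5 FPKM in WT and 16.1 and 13.9 FPKM in Sp1_deltaDBD (log2 fold change -1.08 ± 0.30, limma adjusted p = 0.0283), and both calls were lost when values were centred on each chromosome. They were also lost without WT replicate 1 (*Erg*, *Meis1*), Sp1_deltaDBD replicate 1 (*Meis1*) or Sp1_deltaDBD replicate 2 (*Erg*, *Meis1*). *Runx1*, the master regulator of blood emergence, had 46.1 and 52.9 FPKM in WT and 12.7 and 67.5 FPKM in Sp1_deltaDBD, and the mutant replicates lay on either side of WT. *Tal1* had 84.7 and 93.8 FPKM in WT and 75.1 and 99.8 FPKM in Sp1_deltaDBD, and *Gata1* had 69.9 and 45.9 FPKM in WT and 68.1 and 62.6 FPKM in Sp1_deltaDBD. Of the 22 Hox genes tested, 0 were called by limma.

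Genes of the endothelial list were lower where they were called. The list did not hold *Erg*, called higher above, or *Tek*, with both mutant samples above both WT samples and no call. Of 23 list members tested, 0 were higher and 3 lower (13.0%, where 5.04% of all genes were lower). Both mutant samples lay under both WT samples for 10 and above them for 1, where 17.7% and 26.7% of all genes did, and the median log2 fold change was -0.60. *Eng*, endoglin, a TGF-beta coreceptor, had 12.8 and 13.7 FPKM in WT and 6.14 and 8.50 FPKM in Sp1_deltaDBD (log2 fold change -0.86 ± 0.21, limma adjusted p = 0.0137). *Sox18*, a factor of vascular and lymphatic endothelium, had 2.88 and 3.69 FPKM in WT and 1.43 and 0.434 FPKM in Sp1_deltaDBD (log2 fold change -1.90 ± 0.48, limma adjusted p = 0.0182). *Sox17*, an arterial factor, was listed at the lowest value in both mutant samples and had 0.273 and 0.0801 FPKM in WT. *Cd34* had 103 and 262 FPKM in WT and 86.2 and 100.2 FPKM in Sp1_deltaDBD, and its limma adjusted p was 0.319. The list's count was 0 without WT replicate 1 and 1 without Sp1_deltaDBD replicate 1 or Sp1_deltaDBD replicate 2. Without WT replicate 2 the calls of *Eng* and *Sox18* were lost too, and *Sox17* was called in 4 of 13 alternative fits. The summed FPKM of the endothelial list was 322 and 548 in WT and 255 and 308 in Sp1_deltaDBD. Beside it, 0 of 20 mesenchymal and epithelial genes were called by limma, their median log2 fold change was -1.06, and their summed FPKM was 806 and 458 in WT and 442 and 288 in Sp1_deltaDBD. In both genotypes replicate 1 had the higher sum of these genes and replicate 2 the higher endothelial sum. Among their defining genes, *Col1a1* had 15.7 and 0.785 FPKM in WT and 0.176 and 0.00816 FPKM in Sp1_deltaDBD, *Krt8* had 67.1 and 8.53 FPKM in WT and 22.7 and 1.64 FPKM in Sp1_deltaDBD, and *Epcam* had 0.331 and 0.254 FPKM in WT and 0.362 and 0.00816 FPKM in Sp1_deltaDBD. The part that such cells play in the lower endothelial values was not tested. The 11 cardiac and lateral mesoderm genes had 0 calls, and 2 of them, *Mesp1* and *Isl1*, were at the lowest value in all 4 samples. Of the 14 pluripotency genes, 5 were at the lowest value in all 4 samples, and *Pou5f1* had 0.329 and 0.239 FPKM in WT and 0.00595 and 0.247 FPKM in Sp1_deltaDBD.

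The 12 largest rises and 12 largest falls among the called genes (mean over 3 FPKM in the higher group, no overlap of samples) were taken one by one. The rises were led by genes of the X chromosome. *Rhox5*, an X-linked homeobox gene of testis and placenta, had 1.38 and 1.83 FPKM in WT and 58.2 and 46.1 FPKM in Sp1_deltaDBD (GRCm38, chromosome X, 37804842 to 37808876). Neither mutant sample came near the WT values (log2 fold change 4.94 ± 0.29, limma adjusted p = 4.47e-09). *Trap1a*, the X-linked tumour rejection antigen P1A, had 0.345 and 0.273 FPKM in WT and 38.3 and 12.1 FPKM in Sp1_deltaDBD (log2 fold change 5.73 ± 0.91, limma adjusted p = 0.000586). *Usp26*, an X-linked deubiquitinase of the testis, had 0.819 and 0.365 FPKM in WT and 23.5 and 16.3 FPKM in Sp1_deltaDBD (log2 fold change 4.91 ± 0.50, limma adjusted p = 5.95e-06). All 3 had both mutant samples above both WT samples, although the mutant samples of *Trap1a* lay far apart, and all 3 were called in 13 of 14 alternative fits.

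Other large rises lay on autosomes. *Stag3*, the cohesin subunit of meiosis, had 2.67 and 4.64 FPKM in WT and 16.4 and 26.7 FPKM in Sp1_deltaDBD (log2 fold change 2.54 ± 0.44, limma adjusted p = 0.00134). *Tex19.1*, a germ line and placenta gene that restrains mobile elements, had 0.271 and 0.236 FPKM in WT and 4.68 and 2.76 FPKM in Sp1_deltaDBD (log2 fold change 3.39 ± 0.49, limma adjusted p = 0.000233), although it lies on chromosome 11. The near copy Tex19.2 could share reads with it. *Cbx7*, a Polycomb reader of trimethylated H3K27, had 0.792 and 0.684 FPKM in WT and 4.43 and 5.04 FPKM in Sp1_deltaDBD (log2 fold change 2.53 ± 0.21, limma adjusted p = 5.45e-07), the single call among 27 DNA methylation and Polycomb genes. *Uhrf1*, which guides maintenance methylation, had 128 and 129.7 FPKM in WT and 116 and 163 FPKM in Sp1_deltaDBD, and its groups overlapped. *Rragd*, a Rag GTPase of the lysosomal mTORC1 pathway, had 1.33 and 0.519 FPKM in WT and 6.92 and 4.29 FPKM in Sp1_deltaDBD (log2 fold change 2.56 ± 0.43, limma adjusted p = 0.000906). *Mlana*, a melanosome protein, had 0.448 and 0.000832 FPKM in WT and 3.91 and 2.47 FPKM in Sp1_deltaDBD (log2 fold change 3.77 ± 0.997, limma adjusted p = 0.0222), with WT replicate 2 at its lowest value. The 12 also held *Ccdc178* (log2 fold change 2.53), *4930447C04Rik* (4.63) and *1500009L16Rik* (3.27). The last of these had mutant samples at 13.3 and 2.96 FPKM, a wide spread. Both Rik genes are named only as clones, and *4930447C04Rik* had WT replicate 2 at its lowest value. Among the 12 rises, calls were lost without WT replicate 1 (*Cpa3*), WT replicate 2 (*Mlana*, *1500009L16Rik*) or Sp1_deltaDBD replicate 1 (*Mlana*, *1500009L16Rik*). A testis proteasome subunit, *Psma8*, was also higher, with 0.0948 and 0.171 FPKM in WT and 2.52 and 1.44 FPKM in Sp1_deltaDBD (log2 fold change 3.13 ± 0.44, limma adjusted p = 0.000197).

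**Figure D2:**
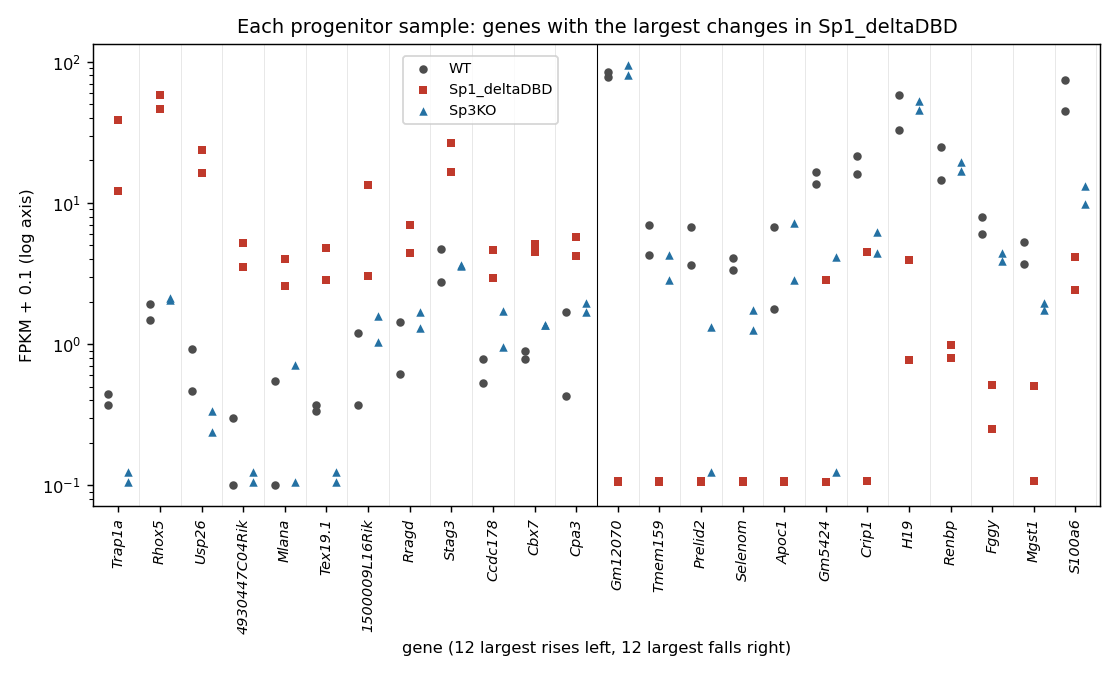
FPKM + 0.1 (log axis) of the 12 genes with the largest rises (left) and the 12 with the largest falls (right), 1 point per progenitor sample, 2 samples in each of WT, Sp1_deltaDBD and Sp3KO. The 2 Sp1_deltaDBD samples lie apart from both WT samples in each gene, as the choice of these genes required. Of the falling genes, 5 (*Gm12070*, *Tmem159*, *Prelid2*, *Selenom*, *Apoc1*) have both mutant samples at the bottom of the axis, the lowest value of the sample.

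For 5 of the 12 falls both mutant samples were listed at the lowest value of their column (0.00595 and 0.00816 FPKM), where 1216 and 1294 genes stand; in the WT columns 858 and 910 genes stand at the lowest value. No fold is given for these. *Tmem159*, which encodes the lipid droplet protein promethin, had 4.17 and 6.83 FPKM in WT (limma adjusted p = 8.32e-10). *Selenom*, a selenoprotein of the endoplasmic reticulum on chromosome 11, had 3.25 and 3.96 FPKM (6.04e-06). *Apoc1*, an apolipoprotein, had 1.67 and 6.65 FPKM (2.54e-05), and *Prelid2* had 6.64 and 3.54 FPKM (0.00141). *Gm12070* had 84.6 and 78.3 FPKM in WT and 80.9 and 94.9 FPKM in Sp3KO (0.0116). It is a processed pseudogene, whose reads can be assigned to its parent gene instead, and its WT samples in HE1 had a mean of 0.000445 FPKM, so its fall is uncertain. *Gm5424*, another processed pseudogene, is uncertain in the same way (16.5 and 13.6 FPKM in WT and 0.00595 and 2.74 FPKM in Sp1_deltaDBD). Calls of both pseudogenes were lost without WT replicate 1, WT replicate 2 or Sp1_deltaDBD replicate 1.

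Of the others, *H19*, the imprinted non-coding RNA, had 58.4 and 32.7 FPKM in WT and 3.86 and 0.669 FPKM in Sp1_deltaDBD (log2 fold change -4.65 ± 0.60, limma adjusted p = 7.5e-05). *Renbp*, the renin-binding N-acylglucosamine epimerase on the X chromosome, had 14.5 and 24.97 FPKM in WT and 0.893 and 0.693 FPKM in Sp1_deltaDBD (log2 fold change -4.43 ± 0.40, limma adjusted p = 1.41e-06), and *Fggy*, a carbohydrate kinase, had 5.90 and 7.84 FPKM in WT and 0.417 and 0.150 FPKM in Sp1_deltaDBD (log2 fold change -4.26 ± 0.30, limma adjusted p = 4.42e-08). *S100a6*, a calcium-binding protein, had 74.5 and 44.7 FPKM in WT and 4.04 and 2.31 FPKM in Sp1_deltaDBD (log2 fold change -4.19 ± 0.69, limma adjusted p = 0.000861). *Crip1*, a LIM domain protein, had 21.3 and 15.9 FPKM in WT and 4.37 and 0.00816 FPKM in Sp1_deltaDBD (log2 fold change -4.73 ± 0.95, limma adjusted p = 0.00379), with mutant replicate 2 at its lowest value. *Mgst1*, the microsomal glutathione transferase, had 3.61 and 5.15 FPKM in WT and 0.409 and 0.00816 FPKM in Sp1_deltaDBD (log2 fold change -4.23 ± 0.73, limma adjusted p = 0.00121). In Sp3KO progenitors *H19* and *Renbp* lay within the range of the WT samples, with 45.3 and 52.6 and 16.7 and 19.4 FPKM. *S100a6* was also low there, with 13.1 and 9.76 FPKM, and *Crip1* had 4.29 and 6.12 FPKM.

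Promoters are shown for the 4 of these falls with a GC box in the RefSeq table, because it is the element that Sp1 binds. They were picked after motifs were counted; of the 12 falls, 6 had a promoter in the table, and those of *Selenom* and *S100a6* held 0 GC boxes. The sequences come from RefSeq (GRCm38.p6), run from 250 bases before to 50 after the gene's start, are written 5′ to 3′ on the gene's strand, and have the GC box, GGGCGG on either strand, in capitals.
Crip1 (chr12:113151762-113152061, plus strand): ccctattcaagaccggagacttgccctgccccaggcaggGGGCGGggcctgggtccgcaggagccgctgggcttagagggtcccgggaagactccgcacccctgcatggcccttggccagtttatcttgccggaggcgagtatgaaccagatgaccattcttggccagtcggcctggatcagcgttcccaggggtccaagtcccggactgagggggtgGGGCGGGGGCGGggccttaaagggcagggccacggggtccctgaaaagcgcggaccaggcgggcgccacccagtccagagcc
Renbp (chrX:73930801-73931100, minus strand): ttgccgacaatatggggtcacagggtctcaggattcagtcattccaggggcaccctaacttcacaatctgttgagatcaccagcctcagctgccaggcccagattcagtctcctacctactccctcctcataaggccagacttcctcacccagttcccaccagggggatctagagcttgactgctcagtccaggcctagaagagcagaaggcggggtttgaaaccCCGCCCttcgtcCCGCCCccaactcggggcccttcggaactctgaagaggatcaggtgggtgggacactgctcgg
Fggy (chr4:95557257-95557556, plus strand): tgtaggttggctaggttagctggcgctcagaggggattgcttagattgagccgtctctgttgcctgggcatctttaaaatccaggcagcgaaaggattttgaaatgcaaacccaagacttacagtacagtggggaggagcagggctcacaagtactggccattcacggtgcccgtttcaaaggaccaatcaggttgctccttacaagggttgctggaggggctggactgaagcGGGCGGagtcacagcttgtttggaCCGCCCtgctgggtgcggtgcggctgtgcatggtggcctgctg
Mgst1 (chr6:138140277-138140576, plus strand): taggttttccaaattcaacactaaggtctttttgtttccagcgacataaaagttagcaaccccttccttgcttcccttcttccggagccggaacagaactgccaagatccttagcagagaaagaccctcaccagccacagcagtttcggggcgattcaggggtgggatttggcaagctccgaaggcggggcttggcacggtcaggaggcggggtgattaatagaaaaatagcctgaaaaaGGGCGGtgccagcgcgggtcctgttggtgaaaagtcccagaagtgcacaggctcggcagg
The *Crip1* window held 3 GC boxes, those of *Renbp* and *Fggy* 2 each, and that of *Mgst1* 1. CACCC was found 3, 3, 1 and 2 times in the same order, CCAAT 0, 0, 1 and 0 times, and AGATAA 1, 0, 0 and 0 times, each on either strand. Matches of different motifs may overlap. Of the 12 rises, *1500009L16Rik* had 2 GC boxes, *Cbx7*, *Stag3* and *4930447C04Rik* had 1 each, and *Rhox5*, *Trap1a*, *Usp26*, *Tex19.1*, *Rragd* and *Cpa3* had 0. Of the 11182 tested genes with a promoter in the RefSeq table, 63.1% held GGGCGG, 62.8% CACCC, 39.1% CCAAT and 6.55% AGATAA, so a GC box is found in most promoters. Of the genes called lower, 588 of 732 (80.3%) had a promoter in the table, and 72.3% of these held GGGCGG. Off chromosome 11 it was 75.1% of 414. These shares were not tested, and genes called lower also had a higher median GC content of the transcript (53.5%) than genes called higher (45.8%). For genes called higher the share is void, since under 80% of them (76.8%) had a promoter in the table. The shares over all genes tested have the same limit, with 77.0% in the table, so the 72.3% is set beside an equally incomplete reference. A match is a description of the letters, not a binding site.

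The largest changes in FPKM, as opposed to folds, were in abundant genes. The 6 largest falls, all on chromosome 11, were *Rpl19*, *Rack1*, *Pfn1*, *Rps27a*, *Eif5a* and *Rpl27*. *Rpl19*, a ribosomal protein, had 1785 and 1574 FPKM in WT and 1138 and 1079.96 FPKM in Sp1_deltaDBD (log2 fold change -0.60 ± 0.13, limma adjusted p = 0.00755). *Rack1*, a ribosome-bound scaffold, had 1477 and 1691 FPKM in WT and 1007 and 1125 FPKM in Sp1_deltaDBD (log2 fold change -0.57 ± 0.11, limma adjusted p = 0.0032). *Pfn1*, the actin-binding profilin, had 828 and 638 FPKM in WT and 371 and 447 FPKM in Sp1_deltaDBD (log2 fold change -0.84 ± 0.18, limma adjusted p = 0.00518). *Eif5a*, a translation factor, had 918 and 715 FPKM in WT and 469 and 542 FPKM in Sp1_deltaDBD. All 6 lost the call when values were centred on each chromosome. The 6 largest rises were *Rpl36a*, *Fkbp3*, *Rpl21*, *Paics*, *Uqcrb* and *Rhox5*. *Rpl36a*, a ribosomal protein of the X chromosome, had 725 and 766 FPKM in WT and 956 and 946 FPKM in Sp1_deltaDBD (log2 fold change 0.35 ± 0.11, limma adjusted p = 0.0461). *Fkbp3*, a nuclear prolyl isomerase, had 164 and 141 FPKM in WT and 264 and 236 FPKM in Sp1_deltaDBD (log2 fold change 0.71 ± 0.14, limma adjusted p = 0.00257). *Paics*, an enzyme of purine synthesis, had 208 and 228 FPKM in WT and 269 and 295 FPKM in Sp1_deltaDBD (log2 fold change 0.37 ± 0.11, limma adjusted p = 0.0339). Calls of *Rpl36a* and *Rpl21* held in 6 of 14 alternative fits each. Both calls and that of *Uqcrb* were lost when values were centred on each chromosome. Calls of these 12 genes were lost without WT replicate 1 (*Rpl36a*, *Rpl21*, *Paics*, *Uqcrb*, *Rpl19*, *Pfn1*, *Rps27a*), WT replicate 2 (*Rpl36a*, *Rpl21*, *Paics*, *Rps27a*, *Rpl27*), Sp1_deltaDBD replicate 1 (*Rpl36a*, *Rpl21*, *Paics*, *Uqcrb*, *Pfn1*) or Sp1_deltaDBD replicate 2 (*Rpl36a*, *Rpl21*, *Paics*, *Rps27a*). Ribosomal protein genes as a list had 2 of 81 higher and 3 lower, all 3 of the latter on chromosome 11 (1 without WT replicate 1 or WT replicate 2), and a median log2 fold change of 0.052.

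Genes of chromosome 11 were lower as a whole. The 1205 genes tested had a median log2 fold change of -0.34, against 0.072 for the 13192 genes placed on the other chromosomes, and 222 were called lower (18.4%) and 6 higher (0.498%). On the other chromosomes 508 of 13192 genes were lower (3.85%) and 532 higher (4.03%). Every window of 10 Mb along chromosome 11 had a median under 0, from -0.47 to -0.20. In WT samples the median FPKM of its genes was 10.3 and 9.95, and in Sp1_deltaDBD samples 7.43 and 8.04, while the other chromosomes held at 7.28 to 7.48 in all 4. The same chromosome was lower in the mutant in each other population, with medians of -0.31 in HE2, -0.29 in HE1, -0.12 in Flk1+ cells and -0.20 in ESC. It was lower than WT in Sp3KO progenitors too, at -0.27, which share the WT samples. The median of Sp1_deltaDBD minus Sp3KO, which uses no WT sample, was -0.094, beside -0.024 for all other chromosomes together. Chromosomes 7, 8 and 17 had the identical value. It is what a gene at the lowest value in all samples of both mutants takes, so it is no measure of chromosome 11. In Sp3KO progenitors the median FPKM of chromosome 11 genes was 7.83 and 8.29. Gene copy number was not measured, and a change in it was not tested. The X chromosome had the highest median, 0.16, with 33 genes higher and 15 lower of 514. When each chromosome was centred on its own median, limma called 423 genes higher and 585 lower, and with chromosome 11 left out, a choice made after seeing the data, 505 and 489.

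**Figure D3:**
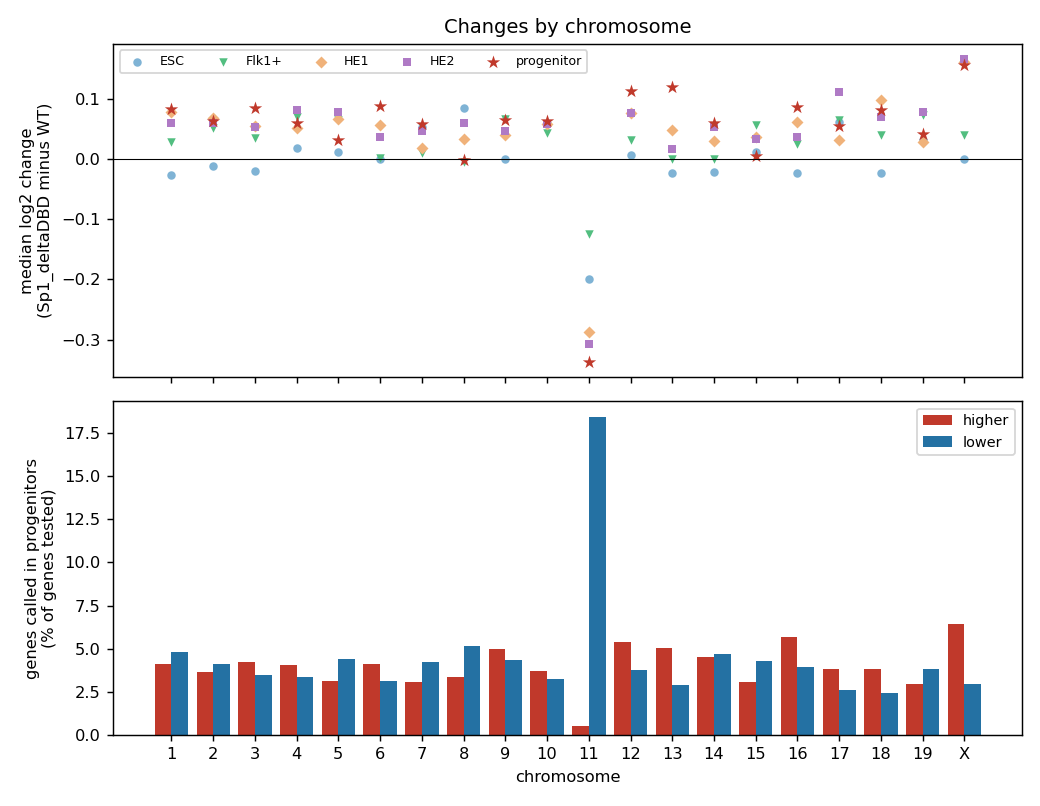
Top, median log2 fold change (Sp1_deltaDBD minus WT) of the genes of each chromosome in 5 populations. Bottom, share of genes called higher or lower in progenitors, as a percent of the genes tested on that chromosome; chromosome 11 stands apart with a median of -0.34 and 18.4% lower.

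Lists of pathway genes were described by their counts beside the 3.75% higher and 5.04% lower of all genes. Of 25 cholesterol and fatty acid synthesis genes tested, 7 rose (28.0%) and 1 fell, and 11 had both mutant samples above WT and 4 both below, where 26.7% and 17.7% of all genes did. *Hmgcs1*, the HMG-CoA synthase at the head of the pathway, had 42.04 and 50.9 FPKM in WT and 88.7 and 100.5 FPKM in Sp1_deltaDBD (log2 fold change 1.03 ± 0.19, limma adjusted p = 0.00164). *Idi1*, *Fdft1* and *Lss*, which make isoprenoid, squalene and lanosterol, had log2 fold changes of 0.93, 0.93 and 0.77 (adjusted p of 0.00877, 0.001 and 0.00518), and *Nsdhl* and *Sc5d* rose as well. *Srebf1*, the SREBP-1 regulator of lipid synthesis on chromosome 11, had 25.9 and 27.4 FPKM in WT and 12.03 and 14.5 FPKM in Sp1_deltaDBD (log2 fold change -1.005 ± 0.16, limma adjusted p = 0.000658). The count of higher genes was 4 without Sp1_deltaDBD replicate 1 and 0 in the 6 progenitor samples alone.

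Of 19 immediate early genes tested, which cells switch on within minutes of a stimulus, 4 fell (21.1%) and 0 rose, 8 had both mutant samples under both WT samples and 1 both above, where 17.7% and 26.7% of all genes did, and the median log2 fold change was -0.76. *Fos* had 19.3 and 22.4 FPKM in WT and 4.29 and 6.22 FPKM in Sp1_deltaDBD (log2 fold change -1.99 ± 0.40, limma adjusted p = 0.0036). *Fosb* had 7.17 and 8.69 FPKM in WT and 1.09 and 2.23 FPKM in Sp1_deltaDBD (log2 fold change -2.27 ± 0.59, limma adjusted p = 0.0209). *Atf3*, a stress-induced repressor, had 3.67 and 13.1 FPKM in WT and 1.90 and 1.58 FPKM in Sp1_deltaDBD (log2 fold change -1.94 ± 0.53, limma adjusted p = 0.0263), and *Dusp1*, a MAP kinase phosphatase, had 10.3 and 17.7 FPKM in WT and 6.12 and 7.38 FPKM in Sp1_deltaDBD (log2 fold change -0.997 ± 0.30, limma adjusted p = 0.0422). The most abundant, *Ier2*, had 26.8 and 44.8 FPKM in WT and 18.97 and 27.4 FPKM in Sp1_deltaDBD and was not called. The count was 1 without WT replicate 2 or Sp1_deltaDBD replicate 1. Calls of *Atf3* and *Dusp1* were also lost without Sp1_deltaDBD replicate 2, and that of *Fosb* without WT replicate 1. Of 22 cell cycle inhibitor and p53 target genes, 3 fell (13.6%, where 5.04% of all genes did) and 0 rose. They were *Cdkn1a*, which encodes p21 (19.4 and 18.9 FPKM in WT and 9.29 and 10.7 FPKM in Sp1_deltaDBD, log2 fold change -0.94 ± 0.20, limma adjusted p = 0.00516), *Phlda3*, an AKT inhibitor (-0.84, adjusted p = 0.00264), and *Zmat3* (-0.97, 0.0336). Proliferation genes had 1 call in each direction of 29 (3.45% each, where 3.75% of all genes rose and 5.04% fell). They were *Ccna2* (80.8 and 80.7 FPKM in WT and 108 and 101 FPKM in Sp1_deltaDBD) and *Aurkb* (55.2 and 56.4 FPKM in WT and 41.9 and 43.9 FPKM in Sp1_deltaDBD), of which the latter lies on chromosome 11. The count of lower p53 targets and inhibitors was 1 without Sp1_deltaDBD replicate 1 and 5 without Sp1_deltaDBD replicate 2. Both proliferation calls were lost without WT replicate 1, WT replicate 2 or Sp1_deltaDBD replicate 1.

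Of 19 Notch genes, 3 fell (15.8%, where 5.04% of all genes did) and 0 rose. *Notch1*, the receptor needed for definitive blood stem cells, had 3.71 and 3.55 FPKM in WT and 0.732 and 1.12 FPKM in Sp1_deltaDBD (log2 fold change -1.89 ± 0.20, limma adjusted p = 9.63e-06), against WT means of 56.8 FPKM in HE1 and 23.4 FPKM in HE2. *Jag1*, a ligand, had 4.85 and 8.21 FPKM in WT and 1.71 and 3.38 FPKM in Sp1_deltaDBD (log2 fold change -1.36 ± 0.37, limma adjusted p = 0.0266), and *Notch3* had 6.89 and 6.10 FPKM in WT and 3.24 and 5.10 FPKM in Sp1_deltaDBD (log2 fold change -0.66 ± 0.20, limma adjusted p = 0.042). *Hey1*, a Notch target, had 2.02 and 2.90 FPKM in WT and 5.38 and 5.47 FPKM in Sp1_deltaDBD (limma adjusted p = 0.0546). The count of lower Notch genes was 1 without WT replicate 2 or Sp1_deltaDBD replicate 1, and *Notch3* was called in 6 of 14 alternative fits. Of 25 JAK-STAT and cytokine receptor genes, 2 fell (8%) and 1 rose (4%), where 5.04% and 3.75% of all genes did. *Stat6*, the mediator of IL-4 and IL-13 signals, had 10.8 and 15.4 FPKM in WT and 2.85 and 3.24 FPKM in Sp1_deltaDBD (log2 fold change -2.05 ± 0.36, limma adjusted p = 0.00142). *Stat5a*, on chromosome 11, had 25.5 and 20.5 FPKM in WT and 10.6 and 12.9 FPKM in Sp1_deltaDBD (log2 fold change -0.96 ± 0.25, limma adjusted p = 0.0207). *Il6st*, the shared gp130 receptor, rose, with 10.7 and 11.2 FPKM in WT and 14.7 and 19.5 FPKM in Sp1_deltaDBD (log2 fold change 0.62 ± 0.12, limma adjusted p = 0.00343). Centring on each chromosome removed the calls of *Stat5a* and *Il6st*, and *Stat5a* was also lost with GC correction and without replicate 1 of either group. Of 29 Wnt genes, 1 rose (3.45%) and 2 fell (6.90%), where 3.75% and 5.04% of all genes did. *Wnt2* rose (4.16 and 3.67 FPKM in WT and 9.06 and 9.13 FPKM in Sp1_deltaDBD, log2 fold change 1.20 ± 0.24, limma adjusted p = 0.00313), while *Lef1* (log2 fold change -1.70, adjusted p = 0.042) and *Fzd2* (-1.23, 0.0333) fell. The call of *Fzd2* was lost when values were centred on each chromosome. Of 25 BMP, TGF-beta and Id genes, 2 rose (8%, where 3.75% of all genes did) and 0 fell. They were the receptor *Bmpr1a* (0.59, 0.0259) and its signal carrier *Smad1* (0.57, 0.0166). Of the Wnt and BMP calls, those lost were without WT replicate 1 (*Lef1*, *Fzd2*, *Bmpr1a*, *Smad1*), WT replicate 2 (*Fzd2*), Sp1_deltaDBD replicate 1 (*Lef1*, *Bmpr1a*) or Sp1_deltaDBD replicate 2 (*Lef1*, *Fzd2*, *Bmpr1a*, *Smad1*).

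Of 20 integrins, 1 rose (5%) and 3 fell (15%), where 3.75% and 5.04% of all genes did. *Itgb7* rose (0.795 and 1.29 FPKM in WT and 3.21 and 4.27 FPKM in Sp1_deltaDBD, log2 fold change 1.77 ± 0.47, limma adjusted p = 0.0231), and *Itga3*, *Itgb5* and *Itga5* fell, with log2 fold changes of -1.76, -1.69 and -0.58 (adjusted p of 0.0268, 0.0247 and 0.0205). Of the 20, 5 lie on chromosome 11, and *Itga3* lost its call when values were centred on each chromosome. The count of lower integrins was 0 without WT replicate 1 or Sp1_deltaDBD replicate 1, *Itgb5* was lost without any 1 of the 4 samples, and *Itgb7* was lost without WT replicate 1, Sp1_deltaDBD replicate 1 or Sp1_deltaDBD replicate 2. Of the 5 Crip, Csrp and midkine genes tested, *Crip1*, *Crip2* and *Mdk* fell, a count that was 1 without WT replicate 1 or Sp1_deltaDBD replicate 2. The 3 that fell are 60% of this short list, where 5.04% of all genes fell. *Mdk*, the growth factor midkine, had 73.4 and 53.6 FPKM in WT and 34.7 and 18.99 FPKM in Sp1_deltaDBD (log2 fold change -1.29 ± 0.33, limma adjusted p = 0.0198). *Crip2* had 13.1 and 7.02 FPKM in WT and 4.42 and 4.09 FPKM in Sp1_deltaDBD (log2 fold change -1.16 ± 0.34, limma adjusted p = 0.0391). Of 32 glutathione and antioxidant genes, *Mgst1*, *Gstk1*, *Gpx3* and *Gsto1* fell (12.5%) and *Gsta4* rose (3.13%), where 5.04% and 3.75% of all genes did. *Gstk1*, the kappa class transferase, had 4.63 and 6.19 FPKM in WT and 1.74 and 0.392 FPKM in Sp1_deltaDBD (log2 fold change -2.52 ± 0.48, limma adjusted p = 0.00251). *Gpx3*, a secreted peroxidase on chromosome 11, had 11.7 and 8.52 FPKM in WT and 3.10 and 1.97 FPKM in Sp1_deltaDBD (log2 fold change -1.97 ± 0.45, limma adjusted p = 0.00951). *Gsta4* had 87.6 and 66.4 FPKM in WT and 142 and 104 FPKM in Sp1_deltaDBD (log2 fold change 0.68 ± 0.20, limma adjusted p = 0.0372), a call lost when values were centred on each chromosome. Of 29 imprinted genes, 1 fell and 1 rose (3.45% each, where 5.04% and 3.75% of all genes did). *H19* fell and *Usp29* rose (0.161 and 0.108 FPKM in WT and 0.377 and 0.473 FPKM in Sp1_deltaDBD), and the call of *Usp29* was lost without any 1 of the 4 samples. The count of lower glutathione genes was 2 without Sp1_deltaDBD replicate 2, and *Gsta4* was lost without WT replicate 2 or Sp1_deltaDBD replicate 1.

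The remaining lists had few calls, set beside 3.75% higher and 5.04% lower of all genes. The shares higher and lower were 2.63% and 7.89% for proteasome genes and 2.47% and 3.70% for respiratory chain genes. They were 8.33% and 4.17% for glycolysis and hypoxia genes, 11.1% and 0% for promoter factors, and 1.45% and 0% for histone genes. Of 38 proteasome genes, *Psma8* rose and *Psmb3*, *Psmb6* and *Psmd3*, all on chromosome 11, fell, a count that was 1 without WT replicate 1 or Sp1_deltaDBD replicate 2. Of 81 nuclear respiratory chain genes, *Uqcrb* (0.46) and *Ndufv3* (0.62) rose and *Cox6b2* (-1.59), *Atp5sl* (-0.61) and *Atp5g3* (-0.46) fell, and the lower count was 1 without WT replicate 1 or WT replicate 2 and 0 without Sp1_deltaDBD replicate 1. Of 24 glycolysis and hypoxia genes, *Pgam1* (0.66) and *Bnip3* (1.04) rose, and *Adm*, adrenomedullin, was listed at the lowest value in both mutant samples against 0.703 and 1.45 FPKM in WT. Of 18 promoter factors that work with Sp proteins, *Taf1*, the largest TFIID subunit, had 23.6 and 20.2 FPKM in WT and 32.5 and 35.2 FPKM in Sp1_deltaDBD (log2 fold change 0.63 ± 0.14, limma adjusted p = 0.00765), and *Nfyb*, an NF-Y subunit, had 16.2 and 14.1 FPKM in WT and 23.1 and 17.8 FPKM in Sp1_deltaDBD (log2 fold change 0.42 ± 0.12, limma adjusted p = 0.0387). The *Nfyb* call was lost when values were centred on each chromosome. Histone genes had 1 call of 69, *Hist1h2aa* (2.12). Single calls of these lists were lost without WT replicate 1 (*Ndufv3*, *Uqcrb*, *Pgam1*, *Bnip3*, *Nfyb*, *Hist1h2aa*), WT replicate 2 (*Adm*, *Taf1*, *Nfyb*), Sp1_deltaDBD replicate 1 (*Ndufv3*, *Uqcrb*, *Bnip3*, *Nfyb*, *Hist1h2aa*) or Sp1_deltaDBD replicate 2 (*Ndufv3*, *Pgam1*, *Bnip3*). The 20 integrated stress response genes and the 10 reference genes had 0 calls by limma; reference genes had a median log2 fold change of -0.0063.

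**Figure D4:**
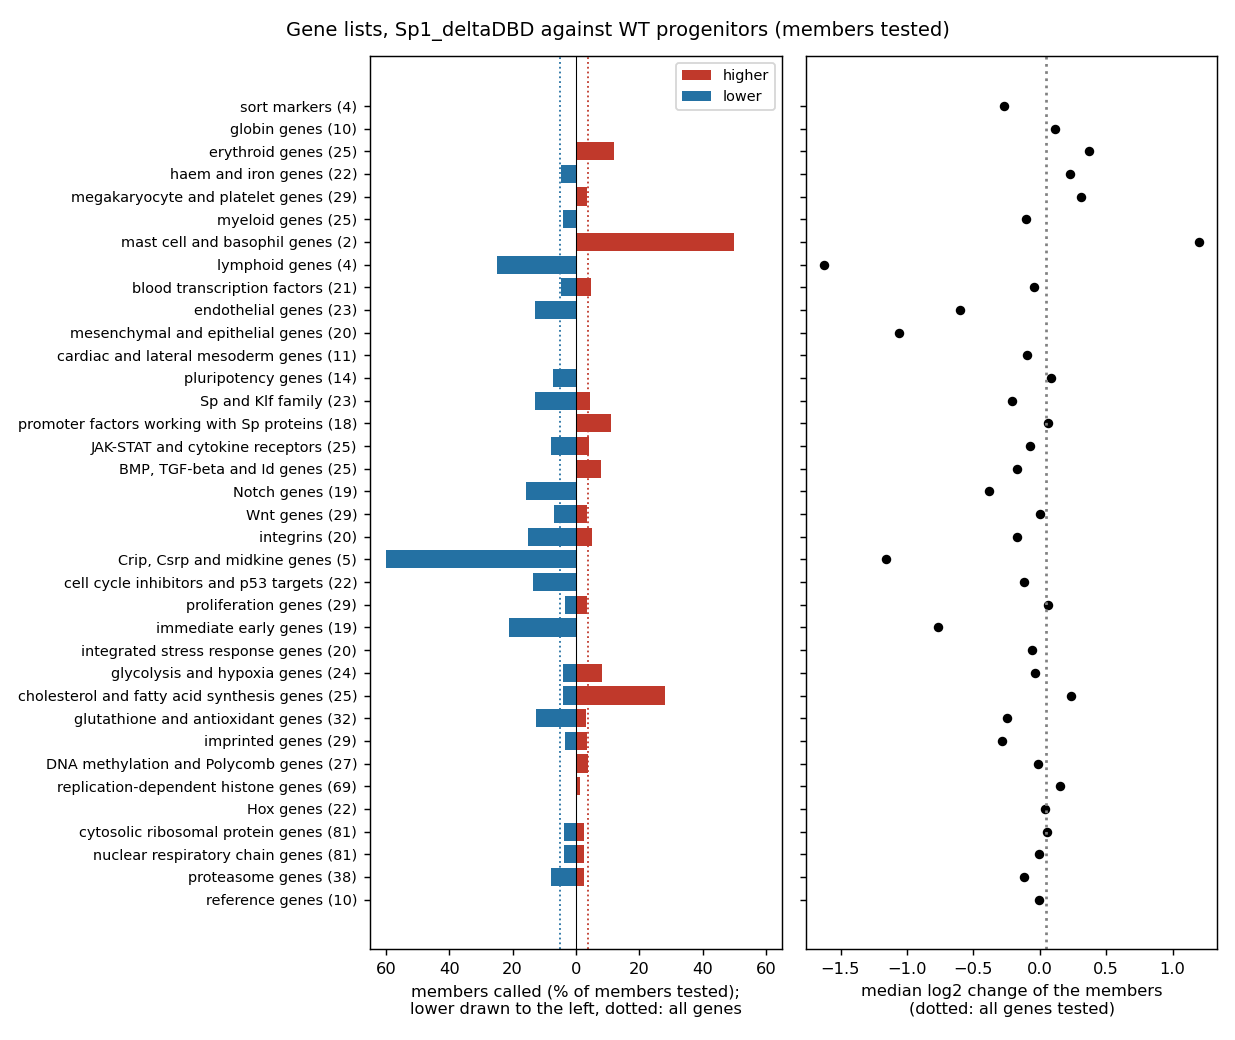
Gene lists in Sp1_deltaDBD against WT progenitors, with the members tested in brackets. Left, percent of members called higher (to the right) and lower (to the left), with dotted lines at 3.75% and 5.04%, the shares of all genes; right, median log2 fold change of the members, where cholesterol genes (28.0% higher) and immediate early genes (21.1% lower) stand past the shares of all genes. The widest bars belong to lists of few members, mast cell (2) and Crip, Csrp and midkine genes (5).

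The calls were followed into the other populations, each with its own WT samples. In HE2, which differs from progenitors in the sort only by Tie2, 683 genes were higher (4.7%) and 722 lower (4.97%). Of the 544 genes higher in progenitors 279 were also higher in HE2, which is 51.3% of the first list and 40.8% of the second, and of the 732 lower genes 382 were also lower in HE2 (52.2% and 52.9%). In HE1, with 826 higher (5.69%) and 632 lower (4.35%), 253 and 303 were shared in the same direction (46.5% and 41.4% of the progenitor calls, 30.6% and 47.9% of those in HE1). Flk1+ cells had 424 higher (2.92%) and 380 lower (2.62%), of which 97 and 161 were shared (17.8% and 21.99% of the progenitor calls, 22.9% and 42.4% of those in Flk1+ cells). ESC had 407 higher (2.8%) and 473 lower (3.26%), of which 69 and 103 were shared (12.7% and 14.1% of the progenitor calls, 17.0% and 21.8% of those in ESC). Deviations from the group mean were correlated between the progenitor sample and the HE1 or HE2 sample with the same number (0.39 to 0.56 across genes), so the sorted populations are not independent. In all 5 populations 25 genes were higher and 34 lower, *Sp4*, *Rhox5* and *Usp26* among the first and *Fggy* and *Tmem159* among the second. The difference between populations was tested by itself. The effect in progenitors differed from that in HE2 for 3 genes (0.0207%) in a model that takes samples as independent. With the correlation of same-numbered sorted samples fitted the count was 26, and it was 29 without WT replicate 2, 5 without WT replicate 1 and 6 without Sp1_deltaDBD replicate 1. The effect differed from that in ESC for 458 genes (3.15%), for 1 when the progenitor and ESC samples were fitted alone, for 212 without WT replicate 1, 230 without Sp1_deltaDBD replicate 1 and 861 without Sp1_deltaDBD replicate 2.

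The 3 genes called between progenitors and HE2 were *Mgmt*, *Lyve1* and *Serpina3b*. *Mgmt*, a DNA repair methyltransferase, had 10.2 and 11.8 FPKM in WT and 1.22 and 0.779 FPKM in Sp1_deltaDBD progenitors, and in HE2 it had 16.5 and 13.7 FPKM in WT and the lowest value in both mutant samples. *Lyve1*, a hyaluronan receptor of endothelium, had 1.49 and 3.27 FPKM in WT and 1.82 and 1.62 FPKM in mutant progenitors, and 47.3 and 33.2 FPKM in WT and 3.59 and 2.87 FPKM in mutant HE2. *Serpina3b*, a serine protease inhibitor, had 0.405 and 0.715 FPKM in WT and 1.86 and 1.85 FPKM in mutant progenitors, and in HE2 0.143 and 0.123 FPKM in WT and the lowest value in both mutant samples.

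**Figure D5:**
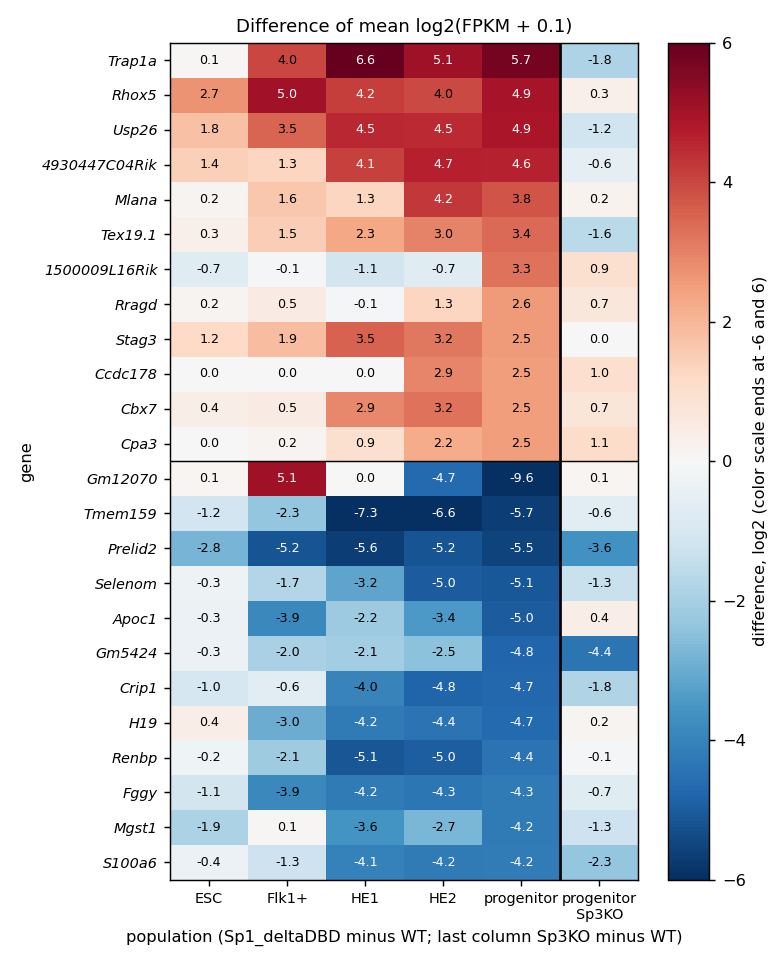
Difference of mean log2(FPKM + 0.1), Sp1_deltaDBD minus WT, in 5 populations for the 24 genes with the largest changes in progenitors, and Sp3KO minus WT in progenitors in the last column; red is higher, blue lower, and colours end at -6 and 6. Values of the 5 genes with both mutant samples at the lowest value depend on the 0.1 added and are no measure of fold; *Rhox5* and *Usp26* are above WT in all 5 populations, while *1500009L16Rik* is above WT in progenitors and under it in the other 4 populations.

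Finally the mutant was set against the other mutant of the same sort, Sp3KO progenitors, in the same fit of 30 samples. Here 884 genes were higher in Sp1_deltaDBD (6.09%) and 801 lower (5.51%), 1685 in all. This count was 145 with the 6 progenitor samples alone, 30 with only the 4 samples of both mutants, and 1082 without Sp1_deltaDBD replicate 1. Of the genes called against WT, 253 of 544 higher genes (46.5%) and 252 of 732 lower genes (34.4%) also differed from Sp3KO in the same direction. Off chromosome 11 it was 203 of 510 lower genes, and on it 49 of 222. The comparisons with WT and with Sp3KO use the same Sp1_deltaDBD progenitor samples. Genes called because these samples stand apart from WT therefore tend to stand apart from Sp3KO in the same direction. The overlap is favoured by that choice and is no independent check of the calls against WT. The same limit holds for the genes named next. *Rhox5*, *Usp26*, *Trap1a*, *Sp4*, *Renbp*, *H19* and *Notch1* differed (limma adjusted p of 9.02e-09, 4.66e-07, 2.93e-05, 4.13e-05, 1.45e-06, 4.15e-05 and 9.59e-05). *Srebf1* and *Hmgcs1* differed as well (0.00438 and 0.0223), while for *Stat6*, *Fos* and *S100a6* the test missed the threshold (0.0969, 0.216 and 0.0922). For *Stat6* the values were 4.996 and 7.12 FPKM in Sp3KO progenitors, between those of WT and Sp1_deltaDBD.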

How the data were processed

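RNA-seq of mouse ESC and their progeny was analysed, with 2 samples in each of 15 groups. Per the labels and the study's methods, the authors trimmed total RNA reads, aligned them to mm10 with HISAT2 2.1.0, derived FPKM per gene with StringTie 1.3.3, removed genes that never exceeded 1 FPKM and deposited quantile normalised FPKM values; the median of a sample was 7.19. Quantile normalisation gives every sample nearly the same distribution, so a change in total RNA cannot be seen. No read counts were used and the depth is unknown. No per-sample column lay outside the series.

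Genes above 1 FPKM in at least 1 sample of the deposited, normalised values (14525) were tested as log2(FPKM + 0.1) with limma 3.58.1 (R 4.3.3), using 15 group means over all 30 samples, empirical Bayes with an intensity trend and Benjamini-Hochberg adjustment over all genes tested, at 0.05. The script was tested on simulated data. Gene positions came from GENCODE M21, with 14554 of 14685 symbols matched. Named genes were *Sp1*, *Sp3* and the sort genes, the 12 largest rises and falls in log2 fold change and the 6 largest in FPKM among called genes without overlap, and up to 4 called members in each direction and the most abundant member of each gene list. Further list members were named for their known role after their values were seen. The members and lists were chosen with earlier results of these data known. Alternatives changed the pseudocount, filter, samples fitted, replicate block, trend, GC and chromosome correction, and left out each replicate. WT and Sp1_deltaDBD progenitors of the same number had a correlation of deviations of 0.178 across 9563 genes, with 2 pairs, which does not establish pairing. Some members of the gene lists are counted but not reported here by name.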

Additional observations from a re-analysis of the deposited data

Results flagged for a closer look

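The effect of Sp1_deltaDBD (mutant minus WT, log2 scale) differed between progenitors and ESC, by limma's interaction test over all genes, for these named genes. They were named for their large changes in progenitors, and the same progenitor samples enter this difference, so its size is favoured by that choice. The progenitor effect was above the ESC effect by 5.65 for *Trap1a* (adjusted p = 0.0224), 2.25 for *Rhox5* (0.00663), 3.15 for *Usp26* (0.0208), 3.23 for *4930447C04Rik* (0.018), 3.06 for *Tex19.1* (0.0208), 3.99 for *1500009L16Rik* (0.046), 2.38 for *Rragd* (0.0372) and 2.14 for *Cbx7* (0.000995). Among abundant genes it was above by 0.525 for *Rpl21* (0.0387), 0.579 for *Paics* (0.0428) and 0.807 for *Uqcrb* (0.0121). The difference was -5.07 for *H19* (0.00371), -4.19 for *Renbp* (0.000683), -3.17 for *Fggy* (0.000683) and -3.83 for *S100a6* (0.0392). 1 WT progenitor sample of *4930447C04Rik* is at the lowest value, so its size depends on the 0.1 FPKM added. For genes with both samples of a group at the lowest value no size is given: the limma adjusted p was 0.00525 for *Ccdc178*, 9.37e-06 for *Tmem159*, 0.0023 for *Selenom* and 0.00568 for *Apoc1*. With the progenitor and ESC samples fitted alone, 1 gene passed in all, in place of 458.

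Between progenitors and HE2 the effect differed by 3.23 for *Lyve1* (limma adjusted p = 0.00429), which was lower in mutant HE2 and low in all progenitor samples. For *Mgmt* and *Serpina3b*, whose mutant HE2 samples were at the lowest value, the adjusted p was 0.00403 and 0.0463.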

How the results depend on the processing

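With 2 samples a group, the calls rest on a spread shared over the series. Higher and lower calls (544 and 732) became 26 and 60 with the 6 progenitor samples alone and 0 and 0 by limma with the 4 samples alone (803 and 904 at unadjusted p under 0.05). Leaving out 1 replicate gave 265 to 528 higher and 432 to 741 lower. Of 101 named genes called, 86 lost the call with 6 samples and 101 with 4, and 0 reversed. The rule of more than 2-fold gave 201 and 370, and with no minimum mean 639 and 890; a pseudocount of 1 gave 125 higher. Without 1 replicate it gave 221 to 288 higher and 403 to 479 lower. Genes whose effect differed from HE2 (3) were 26 with correlated sorted samples, 6 with no trend, 6 with GC and length correction, and 2 to 29 without 1 replicate. Those differing from ESC (458) were 290 above 3 FPKM, 1 with only the groups compared, and 212 to 861 without 1 replicate. Differences from Sp3KO (1685) were 145 with 6 samples, 30 with both mutants alone, and 1082 to 1741 without 1 replicate. The replicate block gave 644 higher and 831 lower; the numbers do not establish pairing. GC and length correction gave 667 and 750. The cause of these shifts was not tested. Depth is unknown, so the limit it sets, such as on genes at the lowest value, cannot be given.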
